A study of Mus musculus with 8 samples.

Results

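The clustered protocadherin locus was described here as mouse chromosome 18 from 36.9 to 37.9 Mb (mm10), which holds the Pcdha, Pcdhb and Pcdhg gene clusters. Methylated and unmethylated reads of every CpG cytosine were summed over tiles of 1000 bp counted from position 1 of the chromosome, and a tile was kept where 3 or more positions were covered and no library had fewer than 20 reads. Of 206 tiles with a covered position, 40 were kept, out of 44516 tiles kept on the autosomes and X. By the genes they overlap, 7 of the 40 lay in Pcdha, 8 in Pcdhb and 22 in Pcdhg genes, and the other 3 overlapped none of these genes. The tiles were chosen by position and coverage alone, without regard to their methylation.

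The libraries were made by reduced representation bisulfite sequencing (RRBS), in which CpG-rich restriction fragments are read after bisulfite conversion, so that a read calls each cytosine methylated or not. The DNA came from I1DN leukemic progenitor cells (cKit+/Cd11b-) of mice that had been transplanted with these cells, and the groups were Vehicle, AG120, AZA and both drugs, here called the combination, with 2 libraries each after 5 days. AG120 is ivosidenib, an inhibitor of mutant IDH1. AZA is azacitidine, a cytidine analogue that inhibits DNA methyltransferases. All groups shared the leukaemia and the transplantation, and no group without leukaemia was included. The labels do not say whether the 2 libraries of a group came from different mice, so the tests measure the spread between these libraries, which may be technical. The series asks what the drugs do together to DNA methylation.

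Clustered protocadherins are cell-surface adhesion proteins of the cadherin family, best known from neurons. Each Pcdha and Pcdhg gene has its own promoter and its own large variable exon, which encodes the extracellular part, and is spliced to constant exons shared by the whole cluster, while Pcdhb genes consist of a variable exon without shared constant exons. Single neurons express different combinations of these genes by choosing among the promoters, a choice that involves CTCF, cohesin and promoter methylation. The C-type genes (Pcdhac1, Pcdhac2, Pcdhgc3, Pcdhgc4 and Pcdhgc5) stand at the ends of the alpha and gamma clusters and are regulated differently from the others. In several cancers the locus is known for long stretches of added methylation. Mutant IDH1 produces a metabolite that inhibits the TET demethylases.

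Between 73712 and 110378 CpG calls per library fell in the locus, with a median of 865 reads per kept tile and library and a range of 20 to 10863. The 4 libraries with AG120 held fewer calls over the whole genome (90373925 to 110137175) than the 4 without it (119441709 to 130796962). In the locus they covered 1036 to 1357 positions against 1241 to 1508. The same tile was often read at different cytosines in different libraries: of 3283 positions, 78 had a read in every library and 983 had reads in 1 library only, and 30 of the 40 tiles (75%, against 49.7% of tiles elsewhere) held no position read in all 8. Differences between libraries in a tile's level can therefore come from different cytosines as well as from different methylation of the same ones. Kit, which marks the cells, had a gene-end window (reaching 1000 bp out of and 500 bp into the gene at the end with more covered positions) at 6.16% over the 8 libraries. The window of Itgam, which encodes Cd11b, did not pass the coverage filter.

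Most variable exons measured were methylated at intermediate to high levels in these cells, with lower levels at their starts. The mean over the 40 tiles was 61.7% over the 8 libraries, and by cluster it was 64.5% in Pcdha, 72.9% in Pcdhb and 57.3% in Pcdhg. The gene table used here gives neither strand nor exons. The Pcdha genes end between 37187657 and 37188897 and the Pcdhg genes between 37840489 and 37841873, at the shared constant exons, so the lower coordinate of a gene was taken as the start of its variable exon. An exon window ran from there over 2500 bp and a start window from 500 bp before to 500 bp after it. Of the 58 clustered protocadherin genes in the table, 29 had a measured exon window (7 of 14 Pcdha, 5 of 22 Pcdhb and 17 of 22 Pcdhg genes) and 13 a measured start window. Of the 40 tiles, 35 reached into the exon window of 27 genes. All but 1 of the tiles also lay inside long predicted genes such as Gm37013 that span the clusters.

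**Figure D1:**
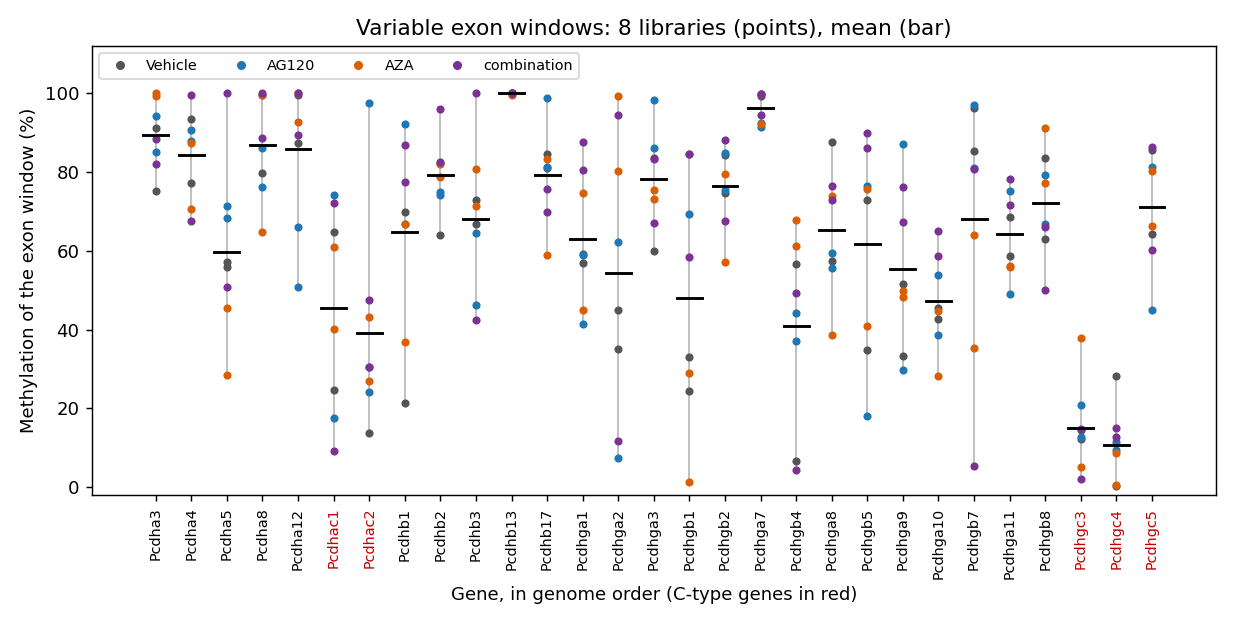
Methylation level (%) of the exon window of the 29 measured clustered protocadherin genes in genome order; points are the 8 libraries, coloured by group, bars are means and C-type names are in red. Pcdhgc3 and Pcdhgc4 have the lowest means (15.0 and 10.8%), and within most genes the libraries of all groups are mixed along the axis.

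In the alpha cluster, the exon windows of Pcdha3, Pcdha8 and Pcdha12 had the highest means over the 8 libraries (89.4, 86.8 and 85.7%). The Pcdha3 window, at 36946088 to 36948588, ran from 75.1% in Vehicle replicate 1 to 100% in AZA replicate 2. The Pcdha5 window was intermediate, with a mean of 59.7%. It held 56.0 and 57.2% with Vehicle, 71.3 and 68.3% with AG120, 45.4 and 28.6% with AZA and 50.8 and 100% with the combination, so that both AG120 libraries lay above both Vehicle libraries and both AZA libraries lay below them. The first gene of the cluster, Pcdha1, had no read in AZA replicate 2, and its exon window ranged from 50.6 to 88.8% in the other 7 libraries.

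In the beta cluster, whose genes are single-exon and lie between the others, the Pcdhb13 exon window was close to fully methylated at 99.4 to 100% in all libraries. It rested on 8 positions and on as few as 55 reads. Pcdhb2 and Pcdhb17 followed with means of 79.4 and 79.2%, and Pcdhb3 and Pcdhb1 were the lowest of the 5 measured at 68.1 and 64.8%. The last gene, Pcdhb22, had no measured window. In the first gene, Pcdhb1, the tile at its start (37265001 to 37266000) and the next one differed: the former had a mean of 35.1% with a range of 0.233 to 100%, and the latter a mean of 87.6% with a range of 73.0 to 100%.

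In the gamma cluster, the exon windows with the highest means were those of Pcdhga7 (96.2%), Pcdhga3 (78.3%) and Pcdhgb2 (76.4%). Pcdhga7 varied least of the 3, from 91.5 to 99.9%. The first gene, Pcdhga1, had a mean of 63.0%. The lowest means outside the C-type genes were those of Pcdhgb4 (40.9%), Pcdhga10 (47.2%) and Pcdhgb1 (48.1%), which were chosen for mention after their values were seen except for Pcdhgb4. The Pcdhgb4 window held 56.5 and 6.71% with Vehicle, 44.3 and 37.2% with AG120, 61.3 and 67.8% with AZA and 4.21 and 49.3% with the combination. Libraries of the same group lay far apart there in Vehicle and in the combination.

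Pcdhgc3 and Pcdhgc4, both C-type genes at the end of the gamma cluster, had the least methylated variable exons measured. The start window of Pcdhgc3 (37805910 to 37806910, 73 positions) had a mean of 2.67%. Its values were 2.18 and 9.28% with Vehicle, 0.0660 and 0.494% with AG120, 0.0176 and 3.98% with AZA and 0 and 5.31% with the combination. The start window of Pcdhgc4 (37814579 to 37815579) had a mean of 10.2%, with 30.9% in Vehicle replicate 2 and 17.6% or less in the other 7 libraries. The alpha C-type genes were higher and varied more. The exon window of Pcdhac1 ranged from 9.17 to 74.1% and that of Pcdhac2 from 13.8 to 97.4%, the latter in AG120 replicate 2, where the other 7 libraries reached 47.5% at most. Pcdhgc5, the last gene of the gamma cluster, had a mean of 71.1% over its exon window and a range of 44.8 to 86.4%. It had no position with 10 reads within 500 bp of its start, and such positions lay between 1500 and 2500 bp and, in combination replicate 1 (at 30%), between 500 and 1000 bp, so its start cannot be compared with those of Pcdhgc3 and Pcdhgc4.

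The 5 tiles at C-type exons had a mean level of 24.2%, against 67.7% for the 30 tiles at other variable exons, and were lower in 8 of 8 libraries. They belong to Pcdhac1, Pcdhac2, Pcdhgc3 and Pcdhgc4. Pcdhgc5, with its exon window at 71.1%, had no kept tile and is not in this mean. The 5 tiles began between −409 and 591 bp from the gene start, while the others began as far as 2382 bp into the gene. Of these 5 tiles, 4 are dense, meaning 60 or more covered positions, and the dense tiles of 3 other genes had means of 81.2% (Pcdhgb2), 58.0% (Pcdhga9) and 49.3% (Pcdhga10). The parts of CpG density and of distance from the gene start in the C-type difference were not tested.

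Methylation was lower at the start of a variable exon than in its body. At exons other than the C-type ones, the mean over libraries of positions with at least 10 reads was 39.5% in the 500 bp before the lower gene coordinate and 53.4% in the 500 bp after it. It was 73.7% between 500 and 1000 bp, 82.5% between 1000 and 1500 bp, 74.4% between 1500 and 2000 bp and 81.4% between 2000 and 2500 bp. Genes with 3 or more such positions both within 500 bp of the start and between 1000 and 2500 bp in the same library numbered 5 to 11 per library. On average over these genes the inner part exceeded the start by 9.82 (combination replicate 2) to 55.8 points (AZA replicate 2), in 8 of 8 libraries. The gene counts were less uniform: the inner part was higher in 8 of 9 and 8 of 8 genes with AZA, in 6 of 10 and 4 of 6 with Vehicle, in 4 of 7 and 7 of 11 with AG120 and in 4 of 5 and 5 of 7 with the combination. In Pcdhgc3 and Pcdhgc4 the low level reached further into the exon, at 5.78, 7.35 and 6.57% in the 3 bins up to 1000 bp and 29.7% between 1000 and 1500 bp. The first and last of these bins come from 1 gene and the middle ones from 2, so the gene set changes between them. The bin from 500 to 1000 bp had as few as 3 positions in a library, and the last one ranged from 0 to 80% over the libraries.

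**Figure D2:**
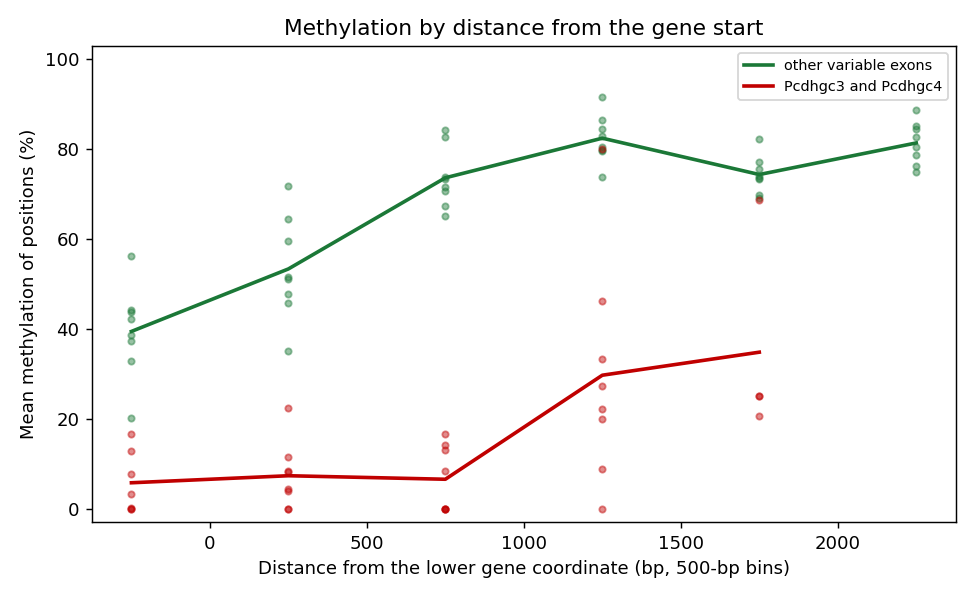
Mean methylation (%) of positions with at least 10 reads, in 500-bp bins of distance from the lower gene coordinate; points are libraries, lines are means over libraries, green for variable exons other than C-type and red for Pcdhgc3 and Pcdhgc4. The green line goes from 39.5 to 82.5%, and the red line stays under 8% up to 1000 bp.

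The other 5 tiles reached no variable exon, and 2 of them, which lay within the alpha genes (37046001 and 37185001), are described further on. Taf7, a subunit of the general transcription factor TFIID, lies between the beta and gamma clusters, and the tile at its upper end (37644001 to 37645000, 56 positions) held 0 to 1.83% in all libraries. The tile at 37842001 to 37843000, just past the end of the gamma genes and before Diaph1, which encodes a formin, held 96.9 to 100%. The tile at 37285001 to 37286000 between Pcdhb1 and Pcdhb2 had a mean of 75.2% and a range of 55.8 to 91.9%. Slc25a2, the mitochondrial carrier gene inside the locus, had no measured window.

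**Figure D3:**
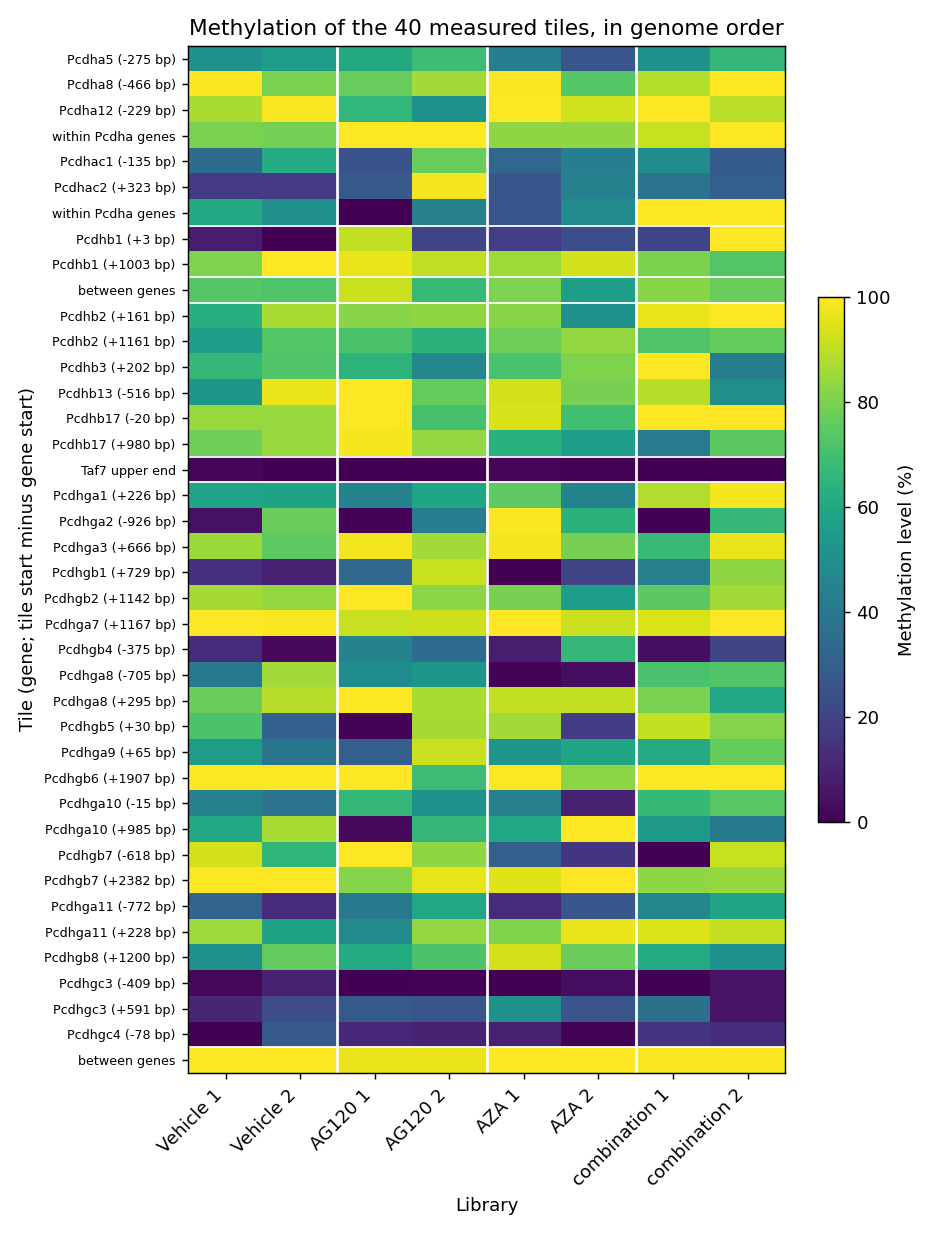
Methylation level (%) of the 40 tiles (vertical axis, in genome order, named by the gene whose variable exon they reach and the tile start minus the gene start in bp) in the 8 libraries (horizontal axis). The Taf7 tile is at most 1.83% in every library, the Pcdhgc3 tile at its start at most 9.28%, and many Pcdhg tiles range from dark to bright within a group.

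Tiles of intermediate level were more frequent in the locus than in the rest of the covered genome. Of its tiles, 7.5% had a mean under 20%, 60% lay between 20 and 80% and 32.5% above 80%. Elsewhere the shares were 40.1, 21.7 and 38.1%. Among dense tiles, which elsewhere had a mean under 20% in 84.0% of cases, 1 of 7 in the locus did so (Pcdhgc3, at its start). The mean of the dense tiles was 42.7% in the locus against 10.9% elsewhere, a difference of 31.8 ± 7.90 points (SD, n = 8 libraries; exact sign-flip permutation p = 0.0078, the smallest that 8 libraries can give, two-sided, adjusted p = 0.0117 over 3 classes). Over all tiles the locus was higher by 13.4 ± 3.81 points, again in 8 of 8 libraries (exact p = 0.0078, adjusted p = 0.0117). In tiles that were not dense the difference was 3.43 ± 3.91 points and was positive in 7 of 8 libraries (exact p = 0.0234). The sign flips ask only whether a difference recurred over these libraries of the same cells. Whether other regions of this size differ as much from the rest of the genome was not tested. When every read counted, in place of every tile, the difference over all tiles was 26.7 points.

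**Figure D4:**
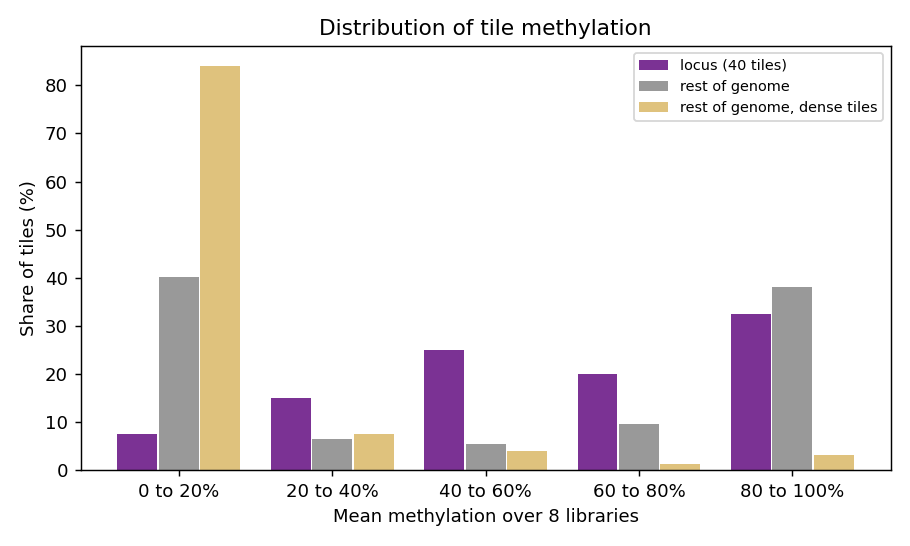
Share (%) of tiles by mean methylation over the 8 libraries, for the 40 tiles of the locus, all other kept tiles and the other dense tiles. The locus has its bars spread over the middle (15, 25 and 20% between 20 and 80%), while 84.0% of dense tiles elsewhere lie under 20%.

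The libraries differed widely at the locus, by similar amounts within and between groups. At positions with at least 10 reads in both libraries of a pair, the mean absolute difference was 23.6 points in the 4 pairs within a group (20.9 to 28.6) and 24.2 points in the 24 pairs between groups (17.2 to 29.7). Elsewhere in the genome the same measures were 12.4 and 12.6 points. Pearson's r across positions averaged 0.531 within and 0.532 between groups in the locus, and 0.770 and 0.768 elsewhere. Positions are not independent replicates, and these correlations are descriptions. The median tile spanned 48.5 points from its lowest to its highest library, against 23.8 points elsewhere, and 42.5% of the tiles spanned more than 50 points, against 21.2%. Among tiles with a mean between 20 and 80% the median span was 59.6 points in the locus and 63.0 points elsewhere.

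The mean level of the locus was 56.9 and 61.6% in the Vehicle libraries, 59.6 and 66.2% with AG120, 61.2 and 56.0% with AZA and 63.4 and 69.1% with the combination. The combination libraries were the highest group on average (66.2% ± 4.04, SD, n = 2), followed by AG120 (62.9% ± 4.68), Vehicle (59.2% ± 3.27) and AZA (58.6% ± 3.66), and the libraries of neighbours in this order overlapped. The 4 libraries with AG120 had a mean of 64.6% ± 4.04 (SD) against 58.9% ± 2.86 in the 4 without it. That difference of 5.67 points (95% interval −1.92 to 13.1) did not pass the threshold in an exact permutation test over 70 assignments (p = 0.0857, two-sided, smallest possible 0.0286). With every read counted it was 13.9 points (exact permutation p = 0.0286), and without AG120 replicate 1 it was 7.32 points (exact permutation p = 0.0286). At positions shared by each pair of libraries compared it was 3.69 points (exact permutation p = 0.143). The libraries with AG120 were also the shallower ones, and the part of depth in this difference was not tested.

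For AZA the difference was 1.30 points (95% interval −10.3 to 12.1; exact permutation p = 0.714), with 62.4% ± 5.43 in the 4 libraries with it and 61.1% ± 3.92 in the 4 without. At the positions with 10 or more reads in every library the sign turned, to −4.72 points. The interaction of the drugs was taken as the mean of the Vehicle and combination libraries minus the mean of the AG120 and AZA libraries. It was 1.98 points (62.7% against 60.8%, 95% interval −9.31 to 13.1, exact permutation p = 0.571). This contrast is smaller than the full change in the difference of one drug when the other is added. These intervals include losses and gains of about 10 points, so a moderate effect of AZA on the locus was not detectable with these libraries.

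None of the 6 classes of tiles passed the threshold for AG120 or AZA after adjustment. A single class could reach no adjusted p below 0.171 in these exact permutation tests, so a difference in 1 class alone could not have passed. The 7 dense tiles came closest, with 47.9% ± 9.36 in the libraries with AG120 and 37.5% ± 2.94 in those without (difference 10.4 points, 95% interval −1.15 to 26.8; exact permutation p = 0.0571, adjusted p = 0.286). AG120 replicate 2 stood highest there at 61.3%, and without that library the difference was 5.90 points. With dense taken as 40 or more positions it was 3.63 points. In Pcdha tiles the combination libraries held 74.0 and 73.5%, above both Vehicle libraries (61.5 and 63.1%) and both AZA libraries (58.9 and 58.7%), while the AG120 libraries lay at 51.0 and 75.0%. This class of 7 tiles includes the tile at 37185001, which adds much to the difference. That tile held 100 and 99.8% with the combination, 60.4 and 49.6% with Vehicle and 26.0 and 48.1% with AZA. With 2 libraries against 2, no exact test of a pair of groups can give a p below 0.33. For Pcdhb and Pcdhg the differences with AG120 were 7.67 and 4.73 points (adjusted p = 0.3 and 0.411, exact permutation tests).

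**Figure D5:**
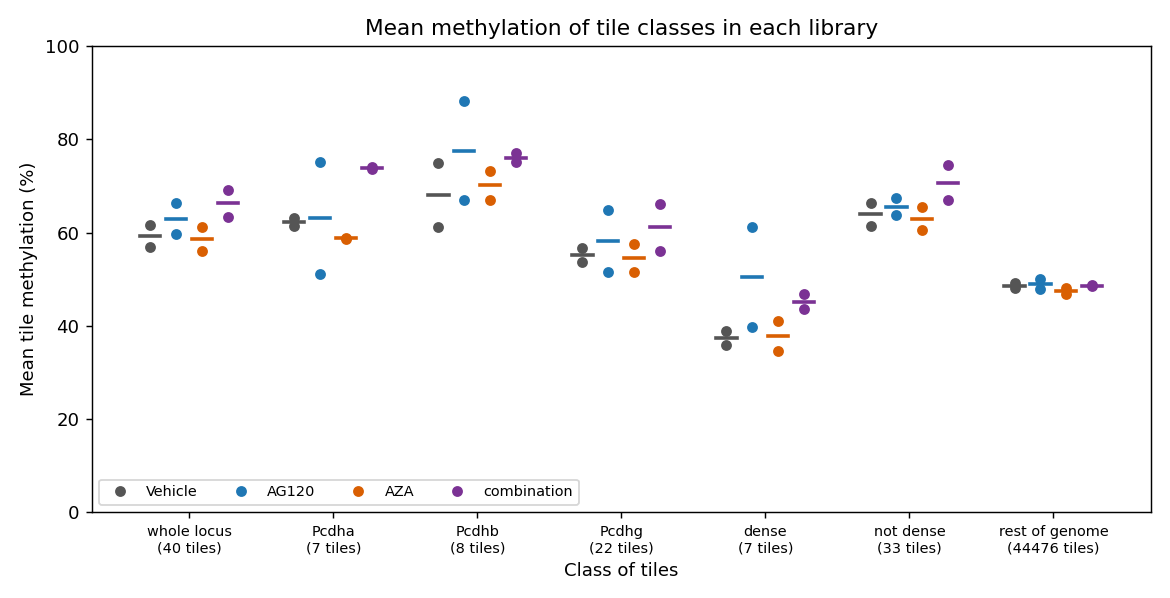
Mean tile methylation (%) of the whole locus, its clusters, dense and other tiles, and the rest of the genome, in the 8 libraries (points) with group means (bars). The groups overlap in most classes, and the 2 combination points lie together at 74.0 and 73.5% in Pcdha, while the rest of the genome stays between 46.7 and 50.01%. The Pcdha mean includes the tile at 37185001, which is at 100 and 99.8% in the combination.

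Of the 40 tiles, 0 passed a false discovery rate of 0.05 in any of the 8 contrasts in edgeR's quasi-likelihood test, and neither did any of the 44190 tiles tested genome-wide (0%). At an unadjusted p under 0.05 the locus had 0 tiles for AG120 against Vehicle (2.84% of all tiles), 1 for AZA against Vehicle (2.46%), 1 for the combination against Vehicle (3.95%), 2 for the combination against AZA (3.86%) and 1 for the combination against AG120 (3.4%). For the 2 drugs as factors it had 0 (AG120, 3.4%) and 1 (AZA, 2.65%), and for the interaction 2 (2.7%). The counts in the locus were thus near the background. Other tools gave more calls, in the locus and genome-wide. The likelihood ratio test of edgeR called 1 tile of the locus for the combination against AZA (0.726% of all tiles) and 1 against AG120 (0.665%). It called 0 for AG120 (0.0181%), AZA (0.0181%) and the combination (0.217%) against Vehicle, for the AG120 and AZA factors (0.928 and 0.493%) and for the interaction (0.421%). DESeq2 called 0 for AG120 against Vehicle (1.71%) and 1 for AZA against Vehicle (1.47%). It called 2 for the combination against Vehicle (3.15%), AZA (3.89%) and AG120 (3.4%), 2 for each factor (3.77% for AG120 and 2.67% for AZA) and 2 for the interaction (2.72%).

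Tiles in which 2 groups did not overlap were counted next. In the combination, 14 tiles had both libraries above both Vehicle libraries and 5 had both below, where 12.7 and 19.6% of all tiles did so. Against AG120 alone the combination was higher in 12 and lower in 4 tiles (12.5 and 15.1% of all tiles), and against AZA alone higher in 12 and lower in 8 (14.7 and 16% of all tiles). AG120 was higher than Vehicle in 10 and lower in 7 tiles (13.1 and 17.2%), and AZA higher in 7 and lower in 6 (12.2 and 18.4%). Between the 4 libraries with and the 4 without AG120, 4 tiles were higher and 1 lower without overlap (1.44 and 2.02%), and for AZA 0 were higher and 1 lower (0.813 and 1.5%). The comparisons share libraries, and neighbouring tiles share sequenced fragments.

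Levels near 0 can hardly fall and levels near 100% can hardly rise, so the same counts were taken over the 24 tiles with a mean between 20 and 80%, of 9687 such tiles genome-wide. The combination was above Vehicle in 11 and below it in 2 (19.7 and 15.9% of such tiles), above AZA in 8 and below in 3 (20.5 and 14.6%), and above AG120 in 6 and below in 2 (16 and 17.1%). AG120 was above Vehicle in 8 and below in 2 (19.5 and 15.3%), and AZA above Vehicle in 5 and below in 5 (15.2 and 19.5%). The libraries with AG120 were above those without it in 3 and below in 0 (2.69 and 1.23%), and the libraries with AZA above those without it in 0 and below in 1 (1 and 1.39%). The median difference between the combination and Vehicle over the 40 tiles was 3.41 points, against −0.0835 points over all tiles. These are descriptions, with no test of the excess. The mean that chose the 24 tiles was taken over all 8 libraries, so a tile could enter through the groups in which it was high. The Pcdhgb1 tile (37681001) had means of 12.1% with Vehicle and 10.4% with AZA, against 62.5% with AG120 and 63.5% with the combination. The same choice was made genome-wide, and its part in the counts was not tested.

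The largest loss from Vehicle to AZA without overlap of the groups lay at the start of Pcdhga8, a gamma protocadherin of the A subfamily (37725001 to 37726000, 24 positions). Its levels were 40.5 and 86.1% with Vehicle, 48.8 and 52.4% with AG120, 1.12 and 3.88% with AZA and 71.4 and 73.0% with the combination. Only the 2 AZA libraries were near 0, and the 2 libraries that received AZA with AG120 lay among the Vehicle values. The unadjusted p was 0.0311 for AZA against Vehicle and 0.0203 for the combination against AZA (edgeR quasi-likelihood test, adjusted p = 1 for both). No position of the tile was read in all 8 libraries, and the AZA libraries read 9 positions each, the Vehicle libraries 21 and 15. The next tile of the same gene (37726001 to 37727000) held 90.9 and 90.9% with AZA and 77.3 and 89.2% with Vehicle.

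A tile near the shared end of the alpha cluster, at 37185001 to 37186000, had the smallest p of the locus for the combination against AG120 and against Vehicle, for AZA as a factor and for the interaction. It held 60.4 and 49.6% with Vehicle, 0 and 43.6% with AG120, 26.0 and 48.1% with AZA and 100 and 99.8% with the combination. Both combination libraries stood above all 6 others. For the combination the unadjusted p was 0.0129 against AG120, 0.0322 against Vehicle and 0.0217 against AZA, where Pcdhga8 had a smaller one (edgeR quasi-likelihood test, adjusted p = 1 for each). It was 0.0465 for AZA as a factor and 0.0236 for the interaction (adjusted p = 1). The tile has 8 positions, none of them read in all libraries, and AG120 replicate 1 read only 1 of them. It was the tile that the likelihood ratio test called for the combination against AG120 (adjusted p = 0.0303) and against AZA (adjusted p = 0.0455).

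The start tile of Pcdhb1, the first beta gene, had the largest difference above Vehicle without overlap in both groups that received AG120. This tile held 7.65 and 0.233% with Vehicle, 90.9 and 20.4% with AG120, 18.1 and 23.8% with AZA and 20 and 100% with the combination. Both Vehicle libraries were the lowest, and the 2 libraries of the AG120 group and of the combination group lay far apart. The unadjusted p was 0.188 for AG120 and 0.155 for the combination. Combination replicate 2 read 4 of the 24 positions there. In the start window of the gene (37264498 to 37265498), which covers the first part of the tile, no gain was seen: it held 1.63 and 0.116% with Vehicle, 0 and 0% with AG120, 0.411 and 0% with AZA and 0% in combination replicate 1, and replicate 2 had no read there. The Vehicle libraries had 196 and 2579 reads in the tile and 184 and 2576 in the start window. The AG120 libraries had 1908 and 963 in the tile but 160 and 744 in the start window. The groups were thus read at different parts of the tile, and the share of this in its difference was not tested.

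Of the 4 tiles that were higher in all libraries with AG120 than in all without it, 3 lay in the gamma cluster. At Pcdhgb1 (37681001 to 37682000) the AG120 libraries held 33.3 and 91.7% and the combination libraries 43.7 and 83.3%, against 14.3 and 9.83% in Vehicle and 0 and 20.9% in AZA. At the start of Pcdhga10 (37747001 to 37748000, 109 positions) the levels were 66.8 and 51.1% for AG120 and 67.1 and 74.0% for the combination, against 43.9 and 38.1% in Vehicle and 43.5 and 10.1% in AZA. At the start of Pcdhga11 (37755001 to 37756000, 37 positions) they were 40.4 and 59.6% for AG120 and 45.7 and 58.3% for the combination, against 32.4 and 11.8% in Vehicle and 12.3 and 26.9% in AZA. The differences of 51.7, 30.9 and 30.2 points had unadjusted p-values of 0.0896, 0.226 and 0.195 in edgeR's quasi-likelihood test (adjusted p = 1 for each). The Pcdhgb1 and Pcdhga10 tiles held no position read in all 8 libraries. In the Pcdhgb1 tile the AG120 libraries had only 39 and 108 reads. In the exon windows the libraries with and without AG120 stayed apart at Pcdhgb1 but overlapped at Pcdhga10 and Pcdhga11. There AG120 replicate 1 held 38.6 and 49.0%, against 45.5 and 58.6% in Vehicle replicate 1. The next tile of Pcdhga10 (37748001, 11 positions) differed in the other direction, with overlap. Its mean was 40.9% ± 27.7 (SD) in the 4 libraries with AG120 and 76.6% ± 20.2 in the 4 without it. In the start windows of Pcdhga10 and Pcdhga11 the libraries with and without AG120 stayed apart. The Pcdhgb1 start window, which lies before the tile, had no read in AZA replicate 1 and combination replicate 2. The other libraries overlapped there, at 71.4 and 57.1% with Vehicle and 38.0 and 100% with AG120. AZA replicate 2 held 42.9% and combination replicate 1 held 85.3%.

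Of the positions in the Pcdhga11 tile, 5 had 10 or more reads in each of the libraries, and at these the groups overlapped. Their mean was 18.4 and 9.53% with Vehicle, 20 and 20% with AG120, 9.80 and 16.9% with AZA and 0 and 36.6% with the combination. The last of the 4 tiles lay within the alpha genes (37046001 to 37047000), at 79.2 to 83.4% in the libraries without AG120 and 91.7 to 100% in those with it (unadjusted p = 0.0583). The tile that was lower was the one past the gamma cluster (37842001), at 100% in all 4 libraries without AG120 and 96.9 to 99.5% with it (unadjusted p = 0.0533). Neither the tile at 37046001 nor the one at 37842001 held a position read in all 8 libraries. Some values rest on few reads. At 37046001 there were 24 in Vehicle replicate 2, 32 in AG120 replicate 2 and 36 and 35 in the combination libraries. At 37842001 there were 32 in AG120 replicate 2. The Taf7 tile had the third smallest p for AG120 (0.0606), with a difference of 0.930 points between levels that were all near 0.

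Other tiles chosen by the same rule differed in single comparisons, each with an adjusted p of 1 and an unadjusted p above 0.05. The Pcdha12 tile held 66.1 and 50.8% in the AG120 libraries, against 87.3 and 99.5% in Vehicle and 100 and 89.5% in the combination (unadjusted p = 0.251 for AG120 against Vehicle and 0.197 for the combination against AG120). The Pcdhgb7 start tile (37751001) held 93.2 and 65.7% with Vehicle and 30.1 and 15.6% with AZA (unadjusted p = 0.341), and the combination libraries lay at 0 and 91.6%. The inner Pcdhgb7 tile (37754001) held 100% in both Vehicle libraries, 82.0 and 96.5% in the AG120 libraries and 83.1 and 84.2% in the combination libraries (unadjusted p = 0.112 and 0.069 against Vehicle). The AG120 and combination libraries were thus below Vehicle there while the tile remained above 80%. From Vehicle to AZA, the 3 largest gains without overlap lay at Pcdhgb8, Pcdhgc3 and Pcdhac2. The Pcdhgb8 tile (37763001) held 50 and 76.1% with Vehicle and 93.6 and 77.2% with AZA. The inner Pcdhgc3 tile (37807001) held 10.7 and 22.7% against 51.5 and 26.5%, and the Pcdhac2 tile 17.15 and 16.8% against 26.8 and 43.8%. Their unadjusted p-values were 0.484, 0.504 and 0.61 (edgeR quasi-likelihood test).

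The 2 tiles of Pcdhb17, a gene in the later part of the beta cluster, differed from Vehicle in opposite directions. The start tile (37485001) held 84.4 and 84.7% with Vehicle and 99.9 and 100% with the combination (unadjusted p = 0.07), the latter from 1 position in combination replicate 2. The inner tile (37486001) held 77.8 and 84.7% with Vehicle, 98.6 and 83.7% with AG120, 63.4 and 55.5% with AZA and 41.1 and 74.9% with the combination. It was the 1 tile in which all 4 libraries with AZA lay below all 4 without it (difference −27.4 points, unadjusted p = 0.175). The Pcdhga1 tile held 88.5 and 98.5% in the combination libraries against 44.8 and 59.0% in the AG120 libraries (unadjusted p = 0.118), and the Pcdhb2 start tile 97.0 and 99.7% against 82.3 and 83.3% (unadjusted p = 0.15).

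Single libraries set several of the largest differences. In the Pcdhac2 tile, AG120 replicate 2 held 98.7% from 7 of 101 positions, while the other 7 libraries held 16.8 to 43.8%. The Pcdhgb4 start tile held 66.5% in AZA replicate 2 from 3 positions and 7.47% in AZA replicate 1. In the inner Pcdhga10 tile (37748001), AG120 replicate 1 held 2.56% and AG120 replicate 2 66.7%. This tile also had the largest loss without overlap from Vehicle and from AZA to the combination. It held 59.9 and 86.9% with Vehicle, 59.6 and 100% with AZA and 54.0 and 40.3% with the combination. The unadjusted p was 0.615 against Vehicle and 0.356 against AZA (edgeR quasi-likelihood test). The Pcdhgb6 tile, at 100% in 6 libraries, held 68.4% in AG120 replicate 2 and 82.6% in AZA replicate 2.

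The same cytosines could be compared across all 8 libraries at 29 positions, which had 10 or more reads in each and lay in 6 of the tiles. Their mean level was 58.3% ± 4.14 in the libraries with AG120 and 49.3% ± 9.98 in those without (difference 9.03 points, 95% interval −4.54 to 28.9; exact permutation p = 0.114). With AZA it was 51.4% ± 11 against 56.2% ± 5.94 (difference −4.72 points, 95% interval −28.9 to 7.35; exact permutation p = 0.629). Of these positions, 65.5% ± 5.63 stood at exactly 0 or 100% with AG120 and 51.7% ± 8.90 without it (exact permutation p = 0.0571, adjusted p = 0.114 over 2 shares). The share between 20 and 80% was 10.3% ± 6.30 with AZA and 25.9% ± 8.68 without it (exact permutation p = 0.0857, adjusted p = 0.171). No share passed the threshold for either drug at these positions. At positions with 20 or more reads in every library the share at exactly 0 or 100% differed by 17.6 points with AG120 (exact permutation p = 0.0286, not adjusted over the 2 shares).

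Neighbouring cytosines of these tiles did not share a level in all libraries. At 37144816 and 37144832 in Pcdhac2, 2 positions with 62 to 412 reads per library, AG120 replicate 1 held 0 and 99.1% and combination replicate 2 held 0 and 100%, while AZA replicate 2 held 98.4 and 1.61%. AG120 replicate 2 held 100% at both and Vehicle replicate 2 held 3.73 and 5.97%. The 2 positions in the Pcdhb13 start tile averaged 100 and 96.5% with Vehicle, 100 and 78.9% with AG120, 100 and 0% with AZA and 50 and 29.5% with the combination. Both combination libraries were below all libraries but AZA replicate 2. The 4 shared Taf7 positions were at 0% in 7 libraries and averaged 11.02% in Vehicle replicate 1. The 6 shared positions of Pcdhgb2 averaged 66.6 and 99.7% with Vehicle, 100 and 95.1% with AG120, 83.1 and 50% with AZA and 74.2 and 82.5% with the combination.

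The genes known to act on the clusters, and those around them, were examined at their gene-end windows, of which 0 of 14048 passed the false discovery rate genome-wide for the combination against Vehicle (0%, edgeR quasi-likelihood test; 5.09% had an unadjusted p under 0.05). Of 30 regulators (CTCF, cohesin subunits and loaders, Smchd1, Setdb1 and other H3K9 and DNA methylation factors), 19 were measured. Their median level was 1.35%, and in the combination 8 were higher than Vehicle, 10 lower and 1 equal, with a median difference of −0.0193 points against −0.190 points over all windows. None was called. Ctcf, the insulator protein that binds the variable exon promoters, had the smallest p (unadjusted 0.0221, adjusted 0.948), at 0.721 and 1.59% with Vehicle and 0.0899 and 0% with the combination. Dnmt3b, a de novo methyltransferase, held 2.62 and 4.01% with Vehicle and 0 and 0.471% with the combination (unadjusted p = 0.0678). The means over the 8 libraries were higher for Nsd1 (89.8%), which encodes an H3K36 methyltransferase, and for the cohesin subunits Stag2 (67.5%) and Smc1a (34.0%), both encoded on the X chromosome; Nsd1 and Smc1a were named after their values were seen. Stag2 stood at 52.1 and 1.72% with Vehicle and 85.3 and 100% with the combination (unadjusted p = 0.082).

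Of 23 neighbour genes 14 were measured, with a median level of 1.44%, and 7 were higher and 7 lower in the combination than in Vehicle. Ankhd1 held 2.47 and 2.54% with Vehicle and 0.0892 and 0% with the combination (unadjusted p = 0.0376, adjusted p = 0.948, edgeR quasi-likelihood test). Diaph1, next to the gamma cluster, held 1.23 and 5.62% with Vehicle and 0 and 0% with the combination (unadjusted p = 0.112). Pcdh1, a non-clustered protocadherin further along the chromosome, held 0.183 and 1.69% with Vehicle and 4.42 and 12.9% with the combination (unadjusted p = 0.176). None of these values of Ankhd1, Diaph1 and Pcdh1 exceeded 12.9%. Other neighbours reached higher in single libraries: Tmco6 39% and Fchsd1 22.3%, both with AG120, and Arap3 17.3% with the combination. These were named after their values were seen.

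Of 16 non-clustered protocadherins and related cadherins, which lie outside the clusters and have no shared constant exons, 8 were measured, with a median level of 20.7%, and 4 were higher and 4 lower in the combination than in Vehicle. Pcdh20 held 49.5 and 59.4% with Vehicle and 29.6 and 0.308% with the combination (unadjusted p = 0.218). Pcdh19 held 47.7 and 91.6% with the combination, against 28.3 and 41.6% with Vehicle and 8.89 and 7.16% with AG120 (unadjusted p = 0.323 for the combination against Vehicle). Of 14 genes for partners of the proteins, 11 were measured and had a median level of 2.42%, and 4 were higher and 7 lower in the combination. Fyn, a Src family kinase, held 0.647 and 0.485% with Vehicle and 9.53 and 4.28% with the combination (unadjusted p = 0.0889), followed by Pdcd10 (unadjusted p = 0.157) and Wasf1 (unadjusted p = 0.214). In every list 0 members were called.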

How the data were processed

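RRBS libraries of I1DN leukemic progenitors were compared in 4 groups of 2. Per the file headers, the authors' table gives raw counts of methylated and unmethylated reads for each CpG cytosine in each library, not normalized, strands apart; all count columns matched a label, and 0 were left unused. The submitters' processing notes name Bismark 0.22.3 (a bisulfite aligner and methylation caller), edgeR 3.32, Trim Galore 0.4.4, bcl2fastq 2.17.1.14, SAMtools 1.4.1, R 4.0.2 and the mm10 build. Their roles, any deduplication and the conversion rate: not given in the sources used here. PCR duplicates would make counts more precise in appearance than the molecules behind them.

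Here a tile's level is its methylated share of reads, and the locus level the unweighted mean over tiles, so deep tiles do not dominate. Each drug was tested as a factor by exact permutation of 4 libraries against 4 (70 assignments), and the locus against other tiles by sign flips over 8 libraries (256). Tiles and gene-end windows were tested genome-wide in 1 fit of all groups with edgeR 4.0.16 (R 4.3.3; robust quasi-likelihood, terms per library and methylation per group, no replicate block), with Benjamini-Hochberg adjustment. Of the kept tiles, 44190 could be tested. The fit was tested on simulated data. Gene coordinates (GRCm38.p6) came from RefSeq.

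Alternatives were DESeq2 1.42.0, limma 3.58.1 on log2 ratios (pseudocount 2), the likelihood ratio test, other tile sizes, read minimums and weights, and leaving out each library. The naming rule took the C-type genes, the first and last gene and the 3 lowest and highest of each cluster, for each comparison the 3 tiles with the smallest p and, without group overlap, the 3 largest losses and gains, the 3 list members with the smallest p for the combination against Vehicle, and Taf7, Slc25a2 and Diaph1. Marker lists of other cell types were measured in 0 of 3 (erythroid), 2 of 7 (lymphoid), 2 of 9 (myeloid), 3 of 6 (neural), 1 of 5 (stromal) and 6 of 6 (progenitor) genes, with mean levels of 5.34% (lymphoid), 21.7% (myeloid), 20.5% (neural), 21.0% (stromal) and 2.22% (progenitor), and 0 were called. The locus and lists were chosen with earlier results of these data known.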

Additional observations from a re-analysis of the deposited data

How the results depend on the processing

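The locus exceeded the rest of the genome under all 14 alternatives tried (9.60 to 26.7 points over all tiles, 20.3 to 32.8 in dense tiles, 2.19 to 7.5 in the others). The AG120 difference stayed positive, at 13.9 points with every read counted and 4.17 to 7.32 with a library left out. It passed the threshold with every read counted and without AG120 replicate 1 and in no other setting tried; the cause was not tested. The AZA difference turned to −1.03 points in 500-bp tiles, −4.72 at positions with 10 reads in every library and −0.728 at positions shared by each pair of libraries, an alternative chosen after seeing the data, and ran from −0.925 to 3.44 with a library left out. The interaction, as defined above, turned to −2.63 in tiles with 3 positions read in every library and −0.101 at the shared positions. It ran from −0.136 to 3.91 with a library left out.

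With a library left out, the AZA difference ran from −0.231 to 7.77 in Pcdha, −3.58 to 5.42 in Pcdhb, −1.62 to 3.83 in Pcdhg, −1.56 to 1.65 in tiles of none of these genes, −5.16 to 3.33 in dense tiles and −0.447 to 4.2 in the others. In dense tiles it was 1.58 with every read counted and 0.816 with dense taken as 40 positions. The share of positions at exactly 0 or 100% differed with AG120 by 17.6 points at 20 reads (exact permutation p = 0.0286), and by 10.3 to 17.2 with a library left out (exact permutation p = 0.0286 without AZA replicate 2). The share between 20 and 80% differed with AZA by −19.5 to −12.6 (exact permutation p = 0.0286 without AG120 replicate 1). These p-values of the shares are not adjusted over the 2 shares, unlike the adjusted ones by which the shares were judged above.

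DESeq2 called 1 tile of the locus for AZA against Vehicle and 2 in each of the other contrasts but AG120 against Vehicle (0), and edgeR's likelihood ratio test called 1 for the combination against AZA and 1 against AG120; limma called 0. Of all 44190 tiles, DESeq2 called 1.47 to 3.89% per contrast and the likelihood ratio test 0.726 and 0.665% in those 2. In DESeq2 the tiles were those at 37185001, Pcdhga8, Pcdhb1 and Pcdhgb1 among the named ones, with adjusted p-values from 0.000327 to 0.0422. Deviations of same-numbered replicates correlated by −0.00429 to 0.0228 over all tiles and by −0.170 to 0.122 over the tiles of the locus. These values showed no pairing by replicate number, but they cannot tell whether same-numbered libraries were prepared together. With the replicate block the locus difference for AG120 had an exact permutation p of 0.111 (smallest possible 0.0556) and 0 tiles were called. Only 2 libraries per group, and tiles read at different cytosines, limit what these data can show. The number of kept tiles ran from 32 at 50 reads to 43 at 10 reads, and was 6 where 3 positions had to be read in every library.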
